A study of Mus musculus with 10 samples.

Results

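The genes described here encode the pyruvate dehydrogenase complex, its regulatory kinases and phosphatase, and the mitochondrial pyruvate carrier. They were chosen by name: Pdha1, Pdhb and Dlat for the complex, Pdk1, Pdk2, Pdk3 and Pdk4 for the kinases, Pdp1 for the phosphatase, and Mpc1 and Mpc2 for the carrier. Of these 10 genes, 9 had a probe set with a single gene symbol, out of 19938 such genes on the array. Each of the 9 had 1 such probe set, and all 9 passed a filter on low signal that kept 11963 genes. Mpc2 was not analysed here.

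The complex sits in the mitochondrial matrix and converts pyruvate, the end product of glycolysis, into acetyl-CoA for the tricarboxylic acid cycle. The kinases phosphorylate its alpha subunit and switch it off, and the phosphatase removes the phosphate and switches it on again. In skeletal muscle this switch sets how much carbohydrate is burned relative to fat, and Pdk4 is widely known as the kinase whose messenger RNA responds to fasting, fat supply and exercise.

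The study compared the muscle of exercised and sedentary mice, and of unexercised descendants of both. Total RNA of gastrocnemius, the large calf muscle, came from male C57BL/6 mice, and each of the 10 Affymetrix whole-transcript arrays received a pool of 5 animals diluted to 98 ng/µl. The F0 EX pool held animals with access to voluntary exercise and the F0 SED pool held sedentary animals. Both kinds of F0 animal were bred with mates of the same exposure, and muscle was taken at 28 weeks. F1 EX and F1 SED were their offspring, and F2 EX and F2 SED came from matings between F1 littermates. All descendants were sedentary and 8 weeks old, so that EX and SED name only what their F0 ancestors did. Each F0 group had 1 pool, and the 4 descendant groups had 2 pools each. The labels do not say that the pools of a group hold different animals. A p-value therefore reflects the spread of the arrays around the fitted terms, and part or all of the spread between pools of a group may be technical. Signals are given on the log2 scale of the deposited table, where a step of 1 is a doubling.

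Some arrays stood apart from the rest. The median correlation with the other arrays over the 11963 genes was 0.974 for F0 SED, 0.979 for F1 EX pool 1 and 0.986 for F0 EX, and 0.990 to 0.993 for the other 7. In F1 EX, 1830 genes differed by 0.5 or more between the pools, against 279 in F2 EX, 316 in F1 SED and 344 in F2 SED. Where leaving out F0 SED or F1 EX pool 1 turned the sign or the call of a tested value, this is said beside it, while the difference between the F0 pools has no value without F0 SED. The label of skeletal muscle fitted the markers: all 8 fibre genes looked at (Acta1, Ckm, Mb, Tnnt3, Myh4, Myh1, Myh2 and Pvalb) lay above the 99th percentile of genes, the lowest at 99.7. The position of the Mpc1 probe set was less clear. Its identifier falls between those of Mok and Cinp on chromosome 12, where the RefSeq table lists the pseudogene Mpc1-ps between them, while Mpc1 itself is on chromosome 17. The neighbouring identifiers of the other 8 genes lie on the chromosome of the gene. Signal from Mpc1 and from its pseudogene cannot be told apart, and the Mpc1 values below carry that limit.

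The promoters of Pdk4 and Dlat, which had their lowest signal in the same array (F0 SED), and of Pdk2, which had its highest there, are shown for context. Each line gives the 250 bases before a start of the gene in RefSeq (GRCm38.p6), read 5′ to 3′ on the minus strand, with capitals marking matches to the motifs described next. The positions are chr6:5496279-5496528 for Pdk4, chr9:50659781-50660030 for Dlat and chr11:95041372-95041621 for Pdk2.
Pdk4: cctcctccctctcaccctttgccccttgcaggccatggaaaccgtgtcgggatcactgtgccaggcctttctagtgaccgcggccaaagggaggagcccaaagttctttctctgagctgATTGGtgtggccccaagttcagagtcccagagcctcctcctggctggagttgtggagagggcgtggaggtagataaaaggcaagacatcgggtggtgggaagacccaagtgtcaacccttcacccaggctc
Dlat: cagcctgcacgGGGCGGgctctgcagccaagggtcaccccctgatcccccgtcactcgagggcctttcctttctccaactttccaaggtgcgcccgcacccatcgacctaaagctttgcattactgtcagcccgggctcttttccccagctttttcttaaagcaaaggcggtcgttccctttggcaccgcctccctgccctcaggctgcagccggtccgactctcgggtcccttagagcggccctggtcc
Pdk2: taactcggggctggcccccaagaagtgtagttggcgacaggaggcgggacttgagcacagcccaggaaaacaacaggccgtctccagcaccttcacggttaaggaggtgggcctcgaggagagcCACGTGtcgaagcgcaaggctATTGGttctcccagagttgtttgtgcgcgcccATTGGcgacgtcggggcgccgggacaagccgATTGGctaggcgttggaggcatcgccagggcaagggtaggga

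Short motifs, 6 in number, were searched on both strands in the windows of the members, and no matches overlapped. Of the 9 measured genes, 8 matched RefSeq promoters by symbol, with 11 windows among them, and the background was 32851 windows of 27025 genes. The only match in the Pdk4 window is a CCAAT box at positions -131 to -127 from the start, written as ATTGG on the printed strand. The printed Pdk2 window holds CCAAT at 3 places, which begin at -105, -73 and -42, and an E-box, CACGTG, at -126 to -121. Another Pdk2 window, chr11:95040876-95041125, has 0 matches. Dlat holds a GC box, GGGCGG, at -239 to -234. CCAAT was in 5 of the 11 windows, 1 each of Pdk4, Pdk2, Pdk3, Pdhb and Mpc1, and in 33.8% of all windows. The GC box was in 6 windows, 1 each of Pdk1, Pdk3, Dlat and Pdhb and both of Mpc1, and in 32.7% of all windows. Those 6 windows consist of G and C to 61.6% to 73.6%, beside a median of 52.4% over all windows. The part of this base content in the count was not tested. The E-box was found in 1 window, the printed one of Pdk2, and in 6.02% of all windows. The letters AAGGTCA (the half-site of oestrogen-related receptors, in 4.08% of all windows), TGTTTAC (the FoxO core, 3.17%) and TATAAA (12.4%) are in none of the 11 windows.

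**Figure D1:**
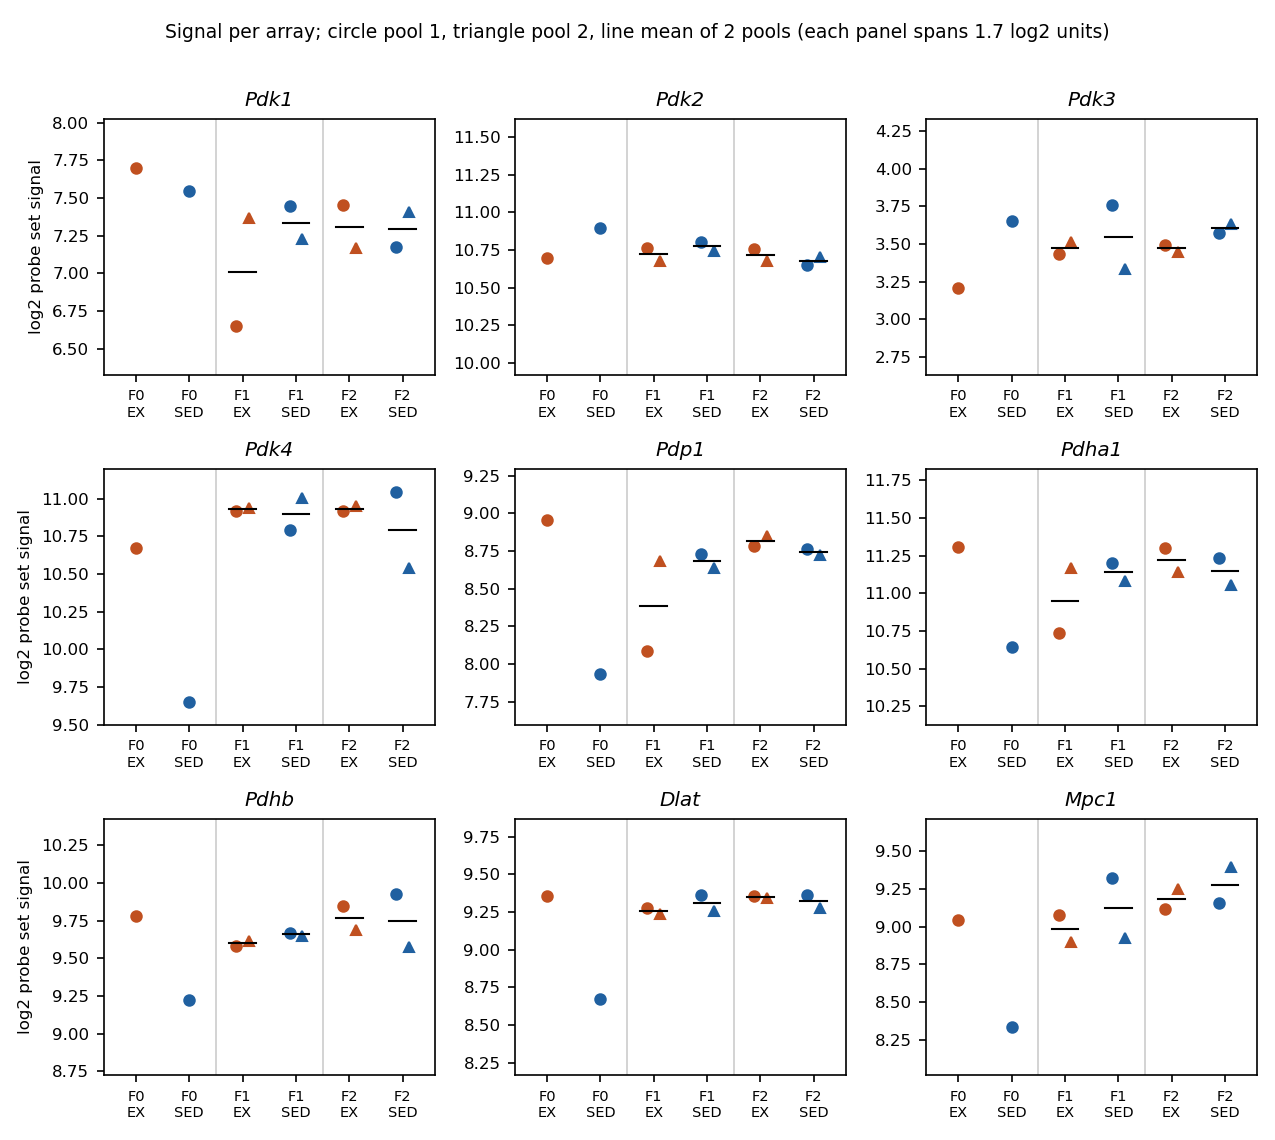
Log2 probe set signal of the 9 measured genes in each of the 10 arrays, with EX pools in orange and SED pools in blue for F0, F1 and F2; circles are pool 1, triangles pool 2, and lines the mean of 2 pools. Pdk4, Pdp1, Pdha1, Pdhb, Dlat and Mpc1 are lowest in the F0 SED array, and Pdk1, Pdp1 and Pdha1 are lower in F1 EX pool 1 than in the other 7 descendant arrays.

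In F0 muscle, where exercised animals themselves were measured, 6 of the 9 genes had a signal at least 0.5 higher in the F0 EX pool than in the F0 SED pool, and 0 were lower by that much. Of all 11963 genes, 15.3% were higher and 5.38% lower by 0.5. The 6 were Pdk4, Pdp1, Pdha1, Pdhb, Dlat and Mpc1, so that the kinase Pdk4, the phosphatase that opposes it, 3 parts of the complex and the carrier all had the higher signal in F0 EX. The other kinases had smaller or opposite differences. With 1 pool each there is no test, and the differences describe these pools. In pooled tissue, a change in the cells present and a change in RNA per cell cannot be told apart.

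Among the kinases, Pdk4 had a log2 signal of 10.67 in F0 EX, against 9.65 in F0 SED, a difference of 1.02 or 2.03-fold. This difference was wider than any gap between pools of a descendant group for this gene, the widest being in F2 SED (11.04 and 10.54). Pdk1, a kinase known as a target of the hypoxia factor HIF-1, had 7.70 in F0 EX and 7.55 in F0 SED, a difference of 0.15 that lies within its SD of 0.30 between pools of a descendant group. Pdk2, a kinase expressed in most tissues, was lower in F0 EX at 10.70, against 10.90 in F0 SED. Its difference of -0.20 compares with an SD of 0.05 between descendant pools, but it was -0.05 with arrays centred over all probe sets, -0.32 over kept genes and -0.45 after quantile normalization. Pdk3 was near the filter for low signal (3.23), with 3.21 in F0 EX and 3.65 in F0 SED, so that its difference of -0.45 lies at the low end of the signal range. The signal of Pdk4 relative to Pdk2 on the same array was higher by 1.22 in F0 EX than in F0 SED, and relative to Pdk1 by 0.86. Such a relative difference does not change when a whole array is shifted up or down, so the kinases differed unequally between the pools.

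The phosphatase Pdp1, a calcium-stimulated enzyme of muscle mitochondria, had 8.96 in F0 EX and 7.93 in F0 SED, a difference of 1.03 or 2.04-fold. Relative to Pdk4 on the same array, Pdp1 differed by only 0.01 between the F0 pools. Pdha1, the alpha subunit that the kinases phosphorylate, had 11.31 in F0 EX and 10.65 in F0 SED (1.58-fold higher). Pdhb, the beta subunit that pairs with it, had 9.78 in F0 EX and 9.22 in F0 SED (1.47-fold higher). Dlat, the acetyltransferase core that carries lipoate, had 9.36 in F0 EX and 8.67 in F0 SED (1.61-fold higher). These 3 parts of the complex differed by similar amounts: relative to Pdha1 on the same array, Pdhb differed by -0.10 and Dlat by 0.02 between F0 EX and F0 SED. Pdk4 differed from Pdha1 by 0.36 on that measure. The Mpc1 probe set, for the pyruvate carrier subunit, had 9.05 in F0 EX and 8.34 in F0 SED (1.63-fold higher).

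The size of these differences depended on the scaling of the arrays. The median over all 11963 genes was 0.08 higher in F0 EX than in F0 SED as deposited, and the median over the 9 genes was 0.66 higher. With arrays centred on their median over all probe sets the 6 genes stayed past the bound, beside 24.5% of all genes, whose median was then 0.22. With arrays centred on their median over kept genes, the 9-gene median was 0.54 beside -0.04 for all genes, with Pdk4 at 0.90 and Pdp1 at 0.91. Pdhb then fell short of the bound at 0.44 and Pdk3 passed it downwards at -0.57, while 10.0% of all genes were higher and 9.71% lower by 0.5. After quantile normalization the medians were 0.42 and 0.01, and 2 genes remained past the bound, Pdk4 at 0.78 and Pdp1 at 0.80, beside 10.7% of all genes higher and 7.77% lower. Dlat and Mpc1 were then at 0.48 each, Pdha1 at 0.42 and Pdhb at 0.32. Pdk4, Pdp1, Pdha1, Pdhb, Dlat and Mpc1 were higher, and Pdk2 and Pdk3 lower, in F0 EX under each of these scalings, and Pdk1 changed sign (-0.05 after quantile normalization).

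**Figure D2:**
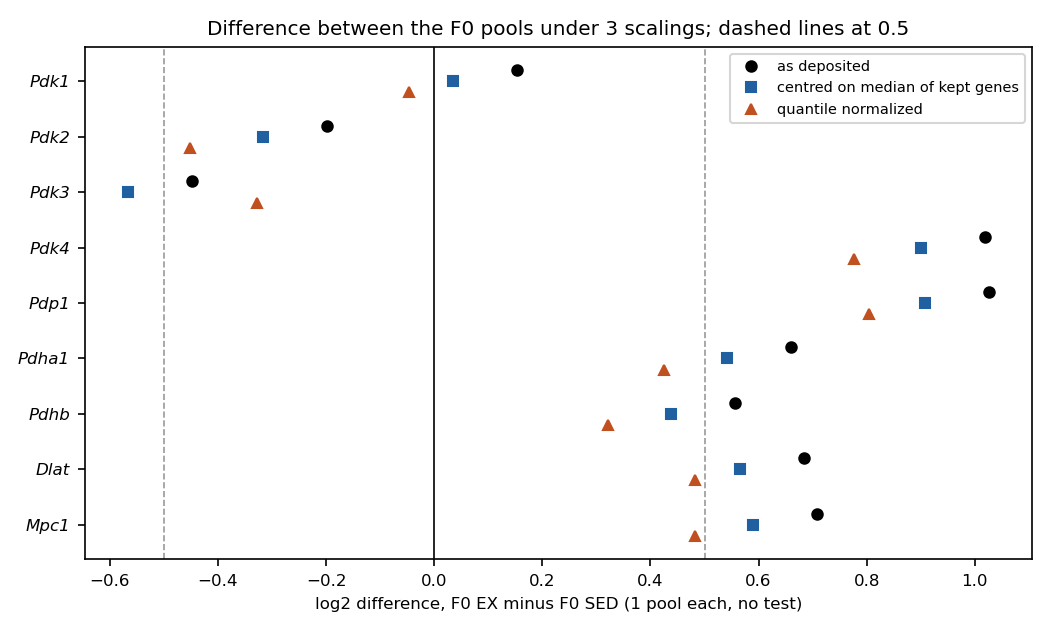
Log2 difference, F0 EX minus F0 SED (1 array each, no test) for the 9 genes, as deposited (black circles), with arrays centred on their median over kept genes (blue squares) and after quantile normalization (orange triangles); dashed lines mark 0.5 in either direction. Pdk4 and Pdp1 lie to the right of 0.5 under all 3 scalings, while Pdk1 lies near 0.

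Set beside the 8 descendant arrays, it was the F0 SED array that lay apart for most of these genes. F0 SED had the lowest signal of all 10 arrays for 6 of the 9 genes, the same 6 as above, whereas it had the lowest signal for 27.2% of all genes. Its difference from the descendant mean was -1.24 for Pdk4, -0.72 for Pdp1, -0.81 for Mpc1, -0.64 for Dlat and -0.47 each for Pdha1 and Pdhb. Pdk2 was at its highest in F0 SED, as were 14.2% of all genes. F0 EX, in contrast, lay within the range of the 8 descendant arrays for Pdk4, Pdk2, Pdhb, Dlat and Mpc1. It was the highest of all arrays for Pdk1, Pdp1 and Pdha1 and the lowest for Pdk3, beside 18.5% and 10.1% of all genes. These places of F0 EX depended on the scaling. Centred on kept genes, F0 EX was no longer the highest for Pdha1, and it was the lowest for Pdk2 as well as Pdk3. After quantile normalization it was no longer the highest for Pdk1. With arrays centred on kept genes F0 SED was the lowest for the same 6 genes (21.0% of all genes), and after quantile normalization for Pdk4, Pdp1, Pdhb, Dlat and Mpc1 (22.4% of all genes).

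Markers of some other cells and fibres differed in the F0 arrays too. The 4 keratinocyte genes averaged 4.17 in F0 EX and 4.87 in F0 SED, compared with 3.13 to 3.60 in the descendant arrays, and 3 of the 4 passed the filter on low signal. The 6 slow-fibre genes averaged 8.76 in F0 EX and 8.25 in F0 SED, compared with 8.39 to 8.83 in descendants, and the 8 fibre genes named above averaged 12.6 in F0 EX and 12.3 in F0 SED, compared with 12.4 to 12.7. Endothelial markers averaged 6.79 in F0 EX and 6.37 in F0 SED, compared with at least 6.99 in descendants. Fibroblast markers averaged 8.49 in F0 EX and 8.28 in F0 SED, compared with at least 9.05 in descendants. Between the F0 pools 3 of them were higher and 2 lower in F0 EX (median 0.06, beside 0.08 over all genes). Adipocyte markers (5.46 in F0 EX and 5.42 in F0 SED) and the 1 erythroid gene measured (4.42 and 4.46) lay inside the descendant range. Myeloid markers averaged 5.82 and 5.63, compared with 5.81 to 6.10, and Schwann markers 3.81 and 3.89, compared with 3.89 to 4.13. The part of all these markers in the values of the pyruvate dehydrogenase genes was not tested.

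The comparison of F0 with its descendants was tested with limma, with ancestry as a term. The fit takes the same ancestry difference in all generations. The spread behind its p-values therefore also holds the part of the gap between the F0 pools that descendants do not share. F0 and descendants differ in age and in generation, and F0 EX animals had exercised themselves, and these cannot be told apart. None of the 9 genes passed an adjusted p of 0.05, while 279 of 11963 genes (2.33%) did, 95 higher in F0 (0.794%) and 184 lower (1.54%). At an unadjusted p of 0.05, 2 of the 9 genes passed, Pdk4 and Mpc1, beside 17.6% of all genes.

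Pdk4 had the largest of the 9 differences. Its signal was 10.67 in F0 EX and 9.65 in F0 SED, compared with 10.92 and 10.94 in F1 EX, 10.79 and 11.01 in F1 SED, 10.92 and 10.95 in F2 EX, and 11.04 and 10.54 in F2 SED. The F0 EX array therefore fell between the lowest descendant array, F2 SED pool 2, and the other 7, and only F0 SED lay outside. Over both F0 arrays the difference from descendants was -0.73 (SE 0.188, 95% confidence interval -1.14 to -0.32, limma adjusted p = 0.0707). With a single F0 array, the ancestry term sets it against descendants of its own ancestry. With F0 SED as the only F0 array the difference was -1.19 (adjusted p = 0.00563), and with F0 EX as the only one it was -0.26 (interval -0.66 to 0.14, adjusted p = 0.600). Without F1 EX pool 1, Pdk4 passed at -0.75 (adjusted p = 0.0463), where 4.88% of all genes passed and 2.83% were lower. Over the 21 alternatives run for this gene, the adjusted p lay between 0.00563 and 0.713 and passed in 3.

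The Mpc1 probe set had 9.05 in F0 EX and 8.34 in F0 SED, compared with 8.90 to 9.39 in descendants, a difference of -0.45 (SE 0.173, adjusted p = 0.204) that was -0.04 without F0 SED. Pdk1 differed in the other direction, with 7.70 in F0 EX and 7.55 in F0 SED, both above all 8 descendant arrays, whose highest was 7.45. Its difference was 0.39 (SE 0.179, adjusted p = 0.289). Dlat had 9.36 in F0 EX and 8.67 in F0 SED, compared with a narrow range of 9.23 to 9.36 in descendants, and its difference was -0.29 (adjusted p = 0.302). F0 EX thus sat within the descendant range for Dlat, and the difference came with F0 SED. The remaining genes differed by -0.21 (Pdp1), -0.19 (Pdhb), -0.14 (Pdha1), -0.09 (Pdk3) and 0.08 (Pdk2). The median over the 9 genes was -0.19, beside -0.02 over all genes. With F0 EX as the only F0 array the median over the 9 was 0.05, the value of Dlat, so that its sign turned.

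With the F0 SED array alone standing for F0, 4 of the 9 genes were called lower: Pdk4, Dlat at -0.64 (adjusted p = 0.0153), Mpc1 at -0.86 (0.0164) and Pdp1 at -0.78 (0.0415). In that fit 7.65% of all genes were called lower and 10.3% in either direction, and the lone F0 array was assumed to vary as the other groups did. Among the SED arrays only, Pdha1 passed as well, at -0.50 (adjusted p = 0.0387), which made 5 of 9 lower, where 13.4% of all genes were lower and 18.8% passed in either direction. With the F0 EX array alone, 0 of the 9 passed (0.719% of all genes), and the signs of 5 turned: Pdp1 was at 0.36, Pdha1 at 0.22, Pdhb at 0.10, Dlat at 0.05 and Pdk2 at -0.02. Pdk1 was then at 0.54 and Pdk3 at -0.27. With both arrays that stood apart left out, 0 passed (1.42% of all genes) and Pdk4 was at -0.28 (adjusted p = 0.491).

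**Figure D3:**
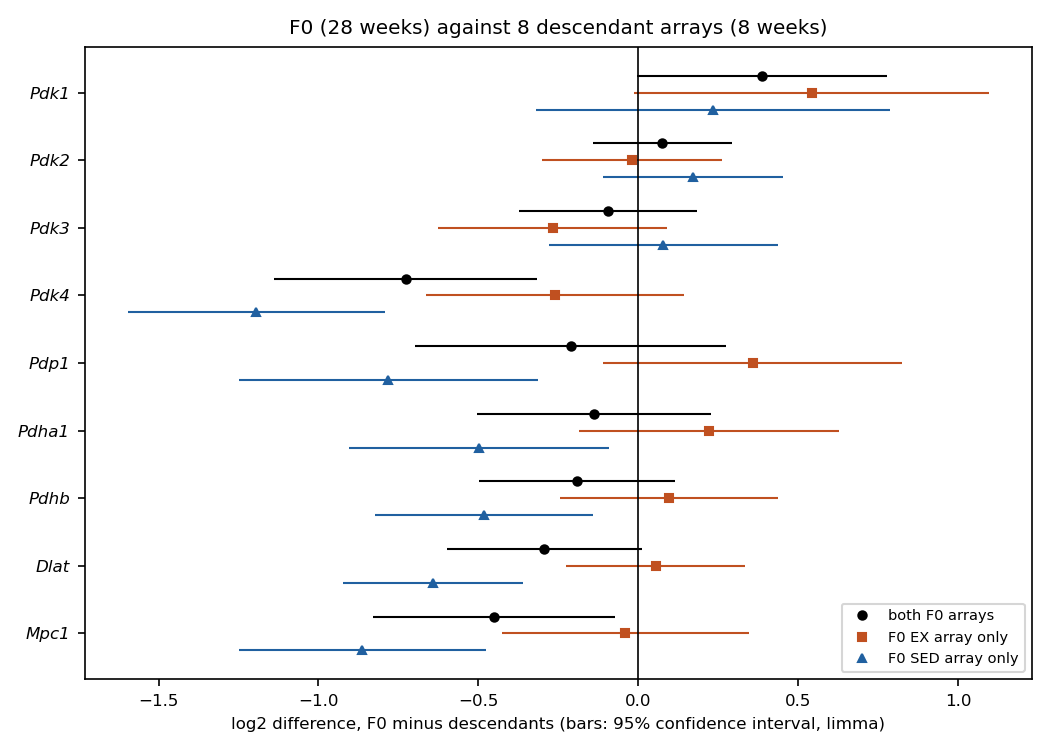
Log2 difference between F0 and the descendants for the 9 genes, with 95% confidence intervals from limma, for both F0 arrays (black circles), for F0 EX as the only F0 array (orange squares) and for F0 SED as the only F0 array (blue triangles). For Pdk4 the point is at -0.73 with both arrays, at -0.26 with F0 EX and at -1.19 with F0 SED.

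In sedentary F1 muscle, 0 of the 9 genes differed between EX and SED ancestry by limma at an adjusted p of 0.05, and neither did any of the 11963 genes (0.0%). At an unadjusted p of 0.05 the counts were 0 of the 9 and 584 of all genes (4.88%). Pdk4 averaged 10.93 ± 0.01 in F1 EX and 10.90 ± 0.15 in F1 SED (SD, n = 2 pools each), a difference of 0.03 with a 95% confidence interval of -0.35 to 0.41. Pdk1 was 6.65 and 7.37 in the F1 EX pools, against 7.44 and 7.23 in F1 SED, a difference of -0.33 (interval -0.83 to 0.17). Pdp1 was 8.09 and 8.68 in F1 EX, against 8.73 and 8.64 in F1 SED, a difference of -0.30 (interval -0.70 to 0.10). In both genes F1 EX pool 1 was low and pool 2 lay among the SED pools. Pdha1 showed the same layout, with 10.74 and 11.17 in F1 EX, against 11.20 and 11.09 in F1 SED, a difference of -0.19 (interval -0.56 to 0.17), which was 0.02 without pool 1. The remaining 5 genes differed by -0.14 (Mpc1) to -0.05 (Dlat and Pdk2), and the lowest adjusted p of the 9 was 0.804. Adipocyte markers moved with this comparison: 5 of 7 were kept and all 5 were lower in F1 EX (median -0.78, 4 at an unadjusted p under 0.05, 0 called). The 6 measured ones averaged 4.81 to 4.92 in F1 EX and 5.42 to 5.67 in F1 SED, and their part in the values of the 9 genes was not tested.

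Which F1 EX pool was used decided the F1 values of Pdk1 and Pdp1. With pool 1 as the only F1 EX array, both were called lower, Pdk1 at -0.69 (limma adjusted p = 0.0473) and Pdp1 at -0.60 (0.0293), where 4.99% of all genes were called lower and 8.74% in either direction. The lone array is the one that stood apart, and it was assumed to vary as the other groups did. With pool 2 as the only one, Pdk1 was at 0.03 and Pdp1 at -0.01, and 0 of the 9 were called. Pool 1 is the array with the lower correlation to the rest, and the 9 genes averaged a difference of -0.20 from the descendant mean in it.

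In F2, whose grandparents had exercised or not, 0 of the 9 genes and 0.0% of all genes passed by limma (lowest adjusted p of the 9 = 1.00), and at an unadjusted p of 0.05 the counts were 0 and 532 genes. Pdk4 was 10.92 and 10.95 in F2 EX, against 11.04 and 10.54 in F2 SED. The EX pools nearly coincided and lay between the SED pools, and the difference of 0.14 had an interval of -0.24 to 0.52. Pdk3 differed by -0.13 and Mpc1 by -0.09, and the other 6 genes by 0.02 to 0.07. No interval excluded 0, and the narrowest, for Pdk2, ran from -0.22 to 0.31.

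The F1 and F2 differences themselves were not shown to differ. For the F2 minus F1 contrast of the ancestry effect, 0 of the 9 genes and 0.0% of all genes passed (519 genes at an unadjusted p of 0.05). The largest values were 0.38 for Pdp1 (SE 0.253, limma adjusted p = 0.919) and 0.35 for Pdk1, the genes that were low in F1 EX pool 1. Without that pool they were 0.08 for Pdp1 and -0.01 for Pdk1, and with it as the only F1 EX array 0.67 (adjusted p = 0.0723) and 0.71 (adjusted p = 0.132).

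Over both generations together, with 4 pools of each ancestry, 0 of the 9 genes and 0.0% of all genes passed (597 genes at an unadjusted p of 0.05). Pdk4 averaged 10.93 ± 0.02 in EX descendants and 10.85 ± 0.23 in SED descendants (SD, n = 4 pools each), a difference of 0.09 with an interval of -0.17 to 0.34. The 4 EX pools of Pdk4 lay between 10.92 and 10.95, inside the SED range of 10.54 to 11.04. Pdk2 differed by -0.01 (interval -0.18 to 0.17), Dlat by -0.01, Pdhb by -0.02 and Pdha1 by -0.06. Pdk3 was at -0.10, Pdp1 and Mpc1 at -0.11 each and Pdk1 at -0.15. Without F1 EX pool 1, Pdk1 was at 0.02, Pdp1 at 0.04 and Pdha1 at 0.05, so that these signs turned, and Pdk4 was at 0.10. Intervals of the 9 genes all included 0 and reached from -0.51 (Pdk1) to 0.34 (Pdk4). Differences inside each gene's interval were not excluded with these pools. The lowest adjusted p among the 9 was 0.901.

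**Figure D4:**
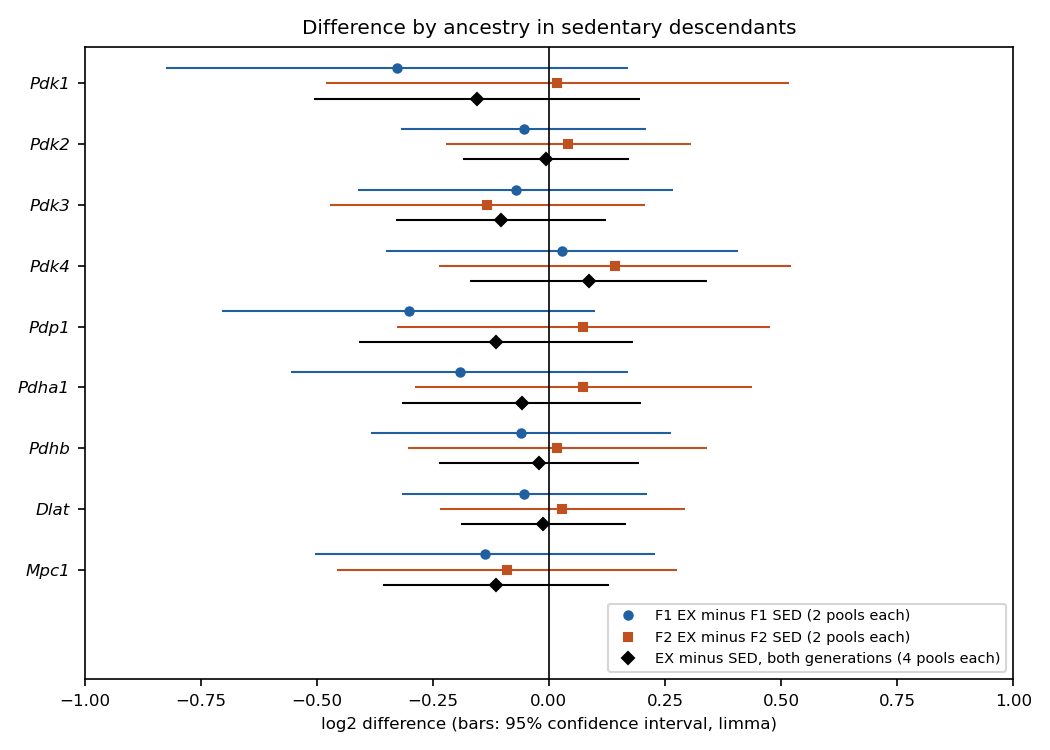
Log2 difference between EX and SED ancestry in sedentary descendants for the 9 genes, with 95% confidence intervals from limma, in F1 (blue circles, 2 pools each), in F2 (orange squares, 2 pools each) and over both generations (black diamonds, 4 pools each). Every interval includes 0, and the points farthest from 0 are Pdk1 at -0.33 and Pdp1 at -0.30 in F1.

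Between the generations of equal age, 0 of the 9 genes and 0.0% of all genes passed for F2 against F1 (509 genes at an unadjusted p of 0.05). Pdp1 had the largest difference, 8.78 ± 0.05 in F2 and 8.54 ± 0.30 in F1 (SD, n = 4 pools each), which was 0.25 (SE 0.134, limma adjusted p = 0.911). Mpc1 was at 0.18, Pdha1 at 0.14, and Pdhb and Pdk1 at 0.13, while Pdk4 and Pdk2 were at -0.05 each. Without F1 EX pool 1, Pdp1 was at 0.09, Pdha1 at 0.02 and Pdk1 at -0.05, and Mpc1, at 0.21, had the largest difference. The median over the 9 was 0.13, beside 0.00 over all genes, and without F1 EX pool 1 it was 0.02, the value of Pdha1.

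How the genes varied with each other was looked at over the 8 descendant arrays, each centred on its median over kept genes. Of 36 pairs, 26 had a positive Pearson correlation and 0 passed after Benjamini-Hochberg adjustment over the pairs (smallest adjusted p 0.431 for Pearson and 0.261 for Spearman, exact permutation tests, two-sided). Pdhb and Dlat, both parts of the complex, had r = 0.85 (exact p = 0.013) and Spearman rho = 0.55 (exact p = 0.171). Their r was 0.48 without the 2 arrays farthest from the median of Pdhb, and 0.82 without F1 EX pool 1. Pdp1 and Pdha1 had r = 0.91 (exact p = 0.029) and rho = 0.57 (exact p = 0.151), with r = 0.70 without the 2 arrays farthest from the median of Pdp1. Without F1 EX pool 1 alone r was 0.33, so that the size of r depended on which arrays were left out. Pdk1 and Pdha1 had r = 0.84 (exact p = 0.048) and rho = 0.43 (exact p = 0.299), and r was -0.09 without the 2 arrays farthest from the median of Pdk1. Leaving out F1 EX pool 1 alone brought r to 0.13, so that the relation of Pdk1 and Pdha1 rests on that array. Pdk4 and Mpc1 ran in opposite directions, with r = -0.70 (exact p = 0.043) and rho = -0.64 (exact p = 0.096), and r = -0.84 without the 2 arrays farthest from the median of Pdk4. The smallest Spearman p belonged to Pdk2 and Pdp1, with rho = -0.88 (exact p = 0.007) and r = -0.40 (exact p = 0.317), and r was -0.55 without the 2 arrays farthest from the median of Pdk2 and -0.84 without F1 EX pool 1. Other pairs with an unadjusted Spearman p under 0.05 were Pdha1 with Pdhb (rho = 0.79, exact p = 0.028), Pdha1 with Dlat (0.76, 0.037) and Pdk3 with Mpc1 (0.74, 0.046). Their r was 0.69, 0.66 and 0.66, and 0.83, 0.68 and 0.64 without F1 EX pool 1. The median r over all pairs was 0.27, and 0.15 without F1 EX pool 1, where 6 pairs changed sign.

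The 5 genes with the pattern most like that of Pdk4 over the same 8 arrays were Grrp1 (r = 0.96), Plin5 (0.95), Ccdc85a (0.94), Szrd1 (0.93) and Zc3h8 (0.93). Pdk4 had its lowest descendant signal in F2 SED pool 2, apart from the other 7. Without that array r was 0.87 for Grrp1, 0.83 for Plin5, 0.85 for Ccdc85a, 0.77 for Szrd1 and 0.94 for Zc3h8. The points share arrays and scaling, and the genes were picked as the highest of 11963. In F0, where Pdk4 differed by 1.02, Plin5 had 5.43 in F0 EX and 5.29 in F0 SED, and Grrp1 had 3.68 in F0 EX and 3.73 in F0 SED.

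Other genes around the complex were counted in 7 lists holding 93 genes, of which 78 were kept. In each of the 6 tests 0 of the 78 were called. Between the F0 pools 24 were higher by 0.5 in F0 EX and 3 were lower, and after quantile normalization 13 were higher and 4 lower. The shares over all genes for these bounds are those given above, 15.3% higher and 5.38% lower as deposited, and 10.7% and 7.77% after quantile normalization. Of the other subunits and regulators, 4 of 6 were kept. Dld, the lipoamide dehydrogenase that completes the complex, had 9.50 in F0 EX and 8.27 in F0 SED, compared with 8.89 to 9.56 in descendants, so that it too was lowest in F0 SED. Pdpr, a regulator of the phosphatase, was 0.66 higher in F0 EX, Pdp2, the second phosphatase, was 0.71 lower, and Pdhx, which binds Dld to the core, differed by -0.08. After quantile normalization 1 of these 4 was higher and 1 lower.

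Of the lipoate and thiamine genes, which supply cofactors of the complex, 9 of 13 were kept, and 2 were higher and 1 lower by 0.5 in F0 EX (1 and 1 after quantile normalization). The lipoate synthase Lias differed by 0.64 and the iron-sulphur carrier Nfu1, which serves it, by 0.82, while Mcat of mitochondrial fatty acid synthesis differed by -0.66. Among other routes of pyruvate and lactate, 15 of 16 were kept and 2 were past the bound, also after quantile normalization: Vdac1, the outer membrane channel, at 0.99 and the malic enzyme Me2 at 0.87. Against the descendants, pyruvate carboxylase Pcx, which feeds pyruvate into oxaloacetate instead, had 8.15 in F0 EX and 7.97 in F0 SED, compared with 7.46 to 7.79, a difference of 0.40 (limma adjusted p = 0.0800). Both F0 arrays of Pcx thus lay above all 8 descendant arrays, without passing the threshold. Of the sister complexes that also use lipoate and Dld, 7 of 9 genes were kept and 2 passed 0.5, Ppm1k, the phosphatase of the branched-chain complex, at 0.95 and Ogdh, of the oxoglutarate complex, at 0.66. After quantile normalization 1 of these 7 was higher and 1 lower.

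The fatty acid genes known with Pdk4 as targets of peroxisome proliferator-activated receptors had 17 of 21 kept, with 8 higher and 0 lower by 0.5 in F0 EX and a median of 0.41. Cd36, a fatty acid transporter, was 1.12 higher, the electron transfer enzyme Etfdh 1.11, Hadha of beta-oxidation 1.10 and the thioesterase Acot2 0.93. After quantile normalization 6 of the 17 were past the bound. In F2 the differences between EX and SED ancestry ran from 0.02 to 0.29 for the 17 (median 0.15, beside 0.04 over all genes), and 0 were called. With arrays centred on kept genes 16 of the 17 were above 0 (median 0.10, beside -0.01 over all genes). In the same comparison all 6 slow-fibre markers were above 0 (median 0.30, 2 at an unadjusted p under 0.05, 0 called), as were all 5 fibroblast markers (median 0.21), and their part was not tested. In the first steps of the tricarboxylic acid cycle, 10 of 11 were kept, with 5 higher in F0 EX (median 0.49), among them Idh3a at 0.81 and Sdha at 0.66, and 1 after quantile normalization. Of the transcription factors and coactivators known to act on Pdk4, 16 of 17 were kept. In F0 EX 3 of them were higher and 1 lower, near the shares of 15.3% and 5.38% over all genes. With arrays centred on kept genes, and after quantile normalization, 1 was higher and 1 lower. Ppargc1a, the coactivator induced by exercise, was 0.76 higher in F0 EX, Nr4a1 0.61, Lpin1 0.52, and Foxo3, a forkhead factor of fasting, was at -0.67.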

How the data were processed

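The values are log2 probe set signals of 10 arrays, in a table that the authors deposited. They were made with Affymetrix Expression Console, per the submitters' processing notes. Its version is not given in the sources used here, nor are the background correction, normalization, summarization and build. The log2 scale was inferred from the range of the deposited values, 0.966 to 14.2, and no further normalization was applied.

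The platform annotation gave 1 symbol for 21789 of 35557 probe sets, several for 1621 and none for 12147. The probe set with the highest mean stood for a gene, and genes with a mean under the 40th percentile (3.23) were left out. RefSeq tables (GRCm38.p6) gave names, chromosomes and promoters.

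limma 3.58.1 (R 4.3.3, lmFit and eBayes) was fitted to all 11963 genes, with Benjamini-Hochberg adjustment over all of them. The F1 and F2 contrasts and the contrast between them used group means of the 8 descendant arrays. Terms for generation and ancestry, on the same 8 arrays, gave the other contrasts of descendants, and on 10 arrays the contrast of F0 with the mean of F1 and F2. Fits with these terms assume an equal ancestry difference in each generation, and any departure from it enters their spread. The fits were tested on simulated data. Correlations used scipy 1.17.1.

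All 10 genes were named whatever their values, and from each list up to 4 genes with the smallest p for F0 against descendants and up to 4 with the largest F0 difference were eligible. The genes, lists and tests were chosen with earlier results of these data known. Alternatives changed the centring, filter, variance model, array weights, probe set rule, replicate block and arrays used. Same-numbered pools did not deviate together (correlations -0.07 to 0.06), so the numbers were not treated as pairs. Detection calls were not used. Precision is limited by the number of arrays.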

Additional observations from a re-analysis of the deposited data

Results flagged for a closer look

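F1 EX pool 1 lay far from the other arrays of its set for 3 of the 9 genes. The gap to the nearest array, as a share of the whole range, was 0.646 for Pdk1 among the 8 descendant arrays, 0.721 for Pdp1 among the same 8 and 0.856 for Pdp1 among the 4 F1 arrays, and 0.570 for Pdha1 among the 8. Each passed Dixon's 95% critical value. In all, 45 such sets were looked at and chance flags about 1 in 20, and the 9 genes share arrays, so 1 unusual array can be counted several times. F1 EX pool 1 was also the descendant array with the lowest correlation to the rest (0.979), and 15.3% of all genes differed by 0.5 or more between the F1 EX pools. The part of this array in the low values was not tested beyond leaving it out.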

How the results depend on the processing

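The count of called genes among the 9 was 0 in all 6 tests and stayed at 0 under every alternative run for F2 ancestry, for the difference of both ancestry effects, for ancestry over both generations and for F2 against F1. For F1 ancestry it was 0 to 2 when pools were left out in turn, with 2 without F1 EX pool 2 (Pdk1 and Pdp1). For F0 against descendants it was 0 to 4 when arrays were left out in turn, with 4 without F0 EX and 1 without F1 EX pool 1, and 5 among SED arrays only. Between the F0 pools, 6 genes were past 0.5 as deposited and 2 after quantile normalization. Of 1010 values of single genes under the alternatives, 863 tested ones kept their sign and their call, 82 changed sign without passing before or after, and 12 newly passed. As 0 of the 9 were called to begin with, there was no call that could be lost or change sign. A kept sign does not mean a kept size. Of the untested F0 differences, 41 moved by less than 1 SD between pools and 12 by more. The block by replicate number left the count at 0 of 9 in each of the 5 tests it was run for, with a lowest adjusted p of 0.756 in limma, and it called 1 gene of all in F2 against F1 and 0 in the others. Correlations between the genes passed in 0 pairs under both alternatives. Centring on kept genes and leaving out both arrays that stood apart were chosen after seeing the data.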
